A study of Arabidopsis thaliana with 18 samples.

Results

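A group of 89 transcripts was examined that rose late in far-red light and already stood higher in seedlings lacking the transcription factors PIF4 and PIF5 before that rise. The members were 89 of the 22746 non-control probe sets (sets of short probes that report 1 transcript) of an Affymetrix array of Arabidopsis thaliana. They were chosen on group means of log2 signal, so a difference of 1 is a 2-fold change in signal. A member was at least 1 higher after 24 h of far-red light than in darkness in both genotypes. It had changed by less than 0.7 after 1 h in both. Its level in the pif4pif5 double mutant was at least 0.4 above that in wild type both in darkness and at 1 h, which is called the head start here. The gene AT5G48490 and genes of the photosystem, light-harvesting, haem and chlorophyll symbols (PSA, PSB, LHC, HEM, CHL) were left out by name, which removed 7 of 96 probe sets. This could act only on probe sets with an assigned gene. As 60 of the 89 members had none, genes of these kinds may remain among them.

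The 18 arrays covered pif4pif5 and wild-type seedlings of ecotype Columbia, with 3 replicates (A, B and C) of each in darkness, after 1 h and after 24 h of far-red light. Every group, dark controls included, had spent 3 days in the cold, had been given a germination pulse of red light (3 h, 50 µmol/m2/s) and had then grown for 3 days in darkness. The 1 h groups were given 0.5 µmol/m2/s and the 24 h groups 5 µmol/m2/s, so duration, fluence rate and age at harvest differ together at 24 h and cannot be told apart. The labels name the double mutant without its alleles and give whole seedlings as the tissue. Whether the replicates came from separate cultures is not stated, so the p values rest on a spread that may be technical.

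PIF4 and PIF5 are basic helix-loop-helix factors that bind the active form of phytochrome and promote the elongated growth of seedlings in darkness and shade. Phytochrome A is the photoreceptor that lets dark-grown seedlings respond to continuous far-red light. In that response, called de-etiolation, the growth of the stem slows, the cotyledons open and genes of the chloroplast are switched on, and factors of the PIF family are known to hold many of the latter back in darkness. In bulk RNA of whole seedlings, a larger share of green tissue and more RNA per cell cannot be told apart.

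One array stood apart: replicate C of dark wild type had an array median over all probe sets of 6.16, while the remaining 17 ranged over 5.6 to 5.88. The probe table gave PIF4 and PIF5 no probe set of their own, so the genotype was not checked here. It named no gene for 8730 probe sets. Among these was 251497_at, with the lowest difference of all probe sets between pif4pif5 and wild type at 1 h, -4.57. Whether it reports PIF4 or PIF5 was not tested. Only 12 of 96 genes of the listed pathways had a single-gene probe set. Among markers of other tissues, the root hair expansin gene EXPA7 was measured at 3.31 to 3.73 in all 6 group means, and ICL, the isocitrate lyase gene of seed oil use, at 11.43 to 12.54. For ICL the mutant differed from wild type by -0.28 in darkness, -0.03 at 1 h and 0.16 at 24 h. The part of changing tissue shares in the members' values was not tested.

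Of the 89 members, 29 named a single gene in the probe table, on 29 distinct loci, and 60 (67.4%) named none. Of all probe sets, 38.4% named none. For 22 of the 29 the reference gene table (assembly TAIR10.1) gave a locus tag and no gene name. The other 7 carried a gene name there, for AT1G52220 among the synonyms (CURT1C). The 29 loci lay on chromosomes 1 (12 loci), 2 (4), 3 (4), 4 (4) and 5 (5). No 2 of them were adjacent: the closest pair, AT1G52220 and AT1G52510, was 33 protein-coding genes apart.

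**Figure D1:**
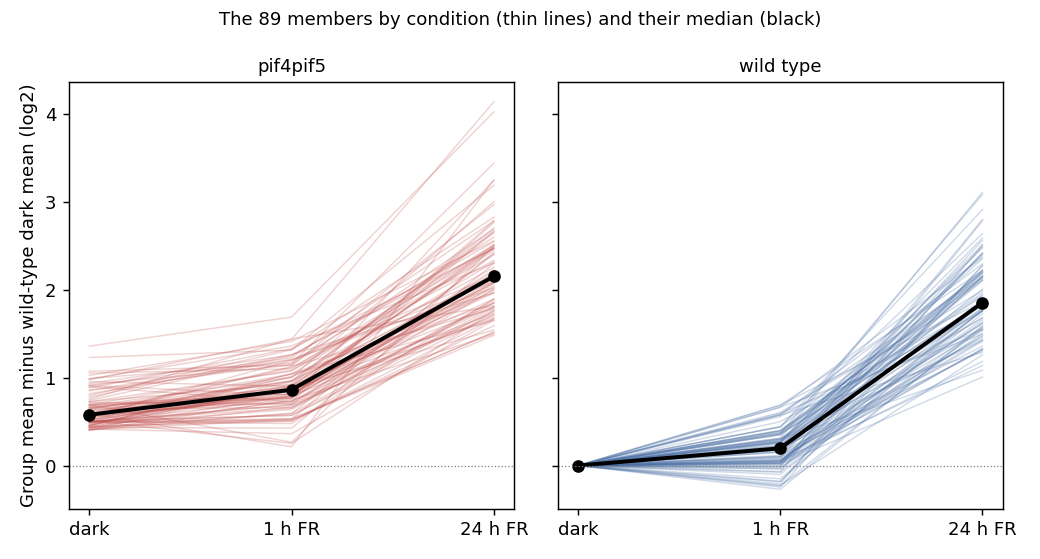
Group mean of each of the 89 members (thin lines) minus its wild-type dark mean, on the log2 scale, in darkness, at 1 h and at 24 h of far-red light (FR), with the median in black. The mutant lines start 0.41 to 1.36 above the wild-type dark level, change little at 1 h and climb by a median of 1.53, against 1.86 in wild type.

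In darkness pif4pif5 stood above wild type by a median of 0.58, or 1.49-fold, with a range of 0.41 to 1.36. At 1 h the median was 0.66, or 1.58-fold, with a range of 0.40 to 1.33. The rise from darkness to 24 h had a median of 1.53 in pif4pif5 (2.88-fold) and of 1.86 in wild type (3.62-fold), and at 1 h the median change was 0.27 in pif4pif5 and 0.20 in wild type. Over all probe sets the median change to 24 h was -0.04 in pif4pif5 and -0.12 in wild type, and after a shift of the arrays to one median it was 0.11 and -0.02 in that order. The dark difference amounted to a median of 33.0% of the wild-type rise on the log2 scale, with a range of 15.6% to 56.3%. It was 50% or more in 4 members and under 25% in 18. These values chose the members and are given as a description.

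The arrays of the genotypes were mostly separate in the conditions the rule used. A dark difference of at least 0.4 was found in 2.45% of all probe sets. In darkness all 3 mutant arrays lay above all 3 wild-type arrays for 70 of the 89 members, where 2.23% of all probe sets did so. At 1 h this held for 69 members, against 7.52% of all probe sets. Nothing is read from these counts, since the same differences chose the members. At 24 h, where the rule set no limit on the genotype difference itself, it held for 33 members. It held for 6.75% of all probe sets and 41 of the 188 late rises that lacked the head start. The rise of each genotype to 24 h over its own dark level did enter the rule. With the dark criterion, the lowest 24 h level allowed was at least 0.4 higher in the mutant than in wild type. This count is thus not independent of the rule, which leaned to the mutant at 24 h.

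Members near the limits of the rule show how sharp it was. Within 0.1 of the dark limit lay 25 members and 15 probe sets that failed on this criterion alone, the nearest of them RCA, the activase of Rubisco, with a dark difference of 0.398. SBPASE, an enzyme of the Calvin cycle, met every criterion but one, with a mutant rise of 0.987. The member nearest to the limit on the wild-type rise was AT1G11850, at 1.01, and the one nearest to the limit at 1 h was AT1G32220, with a difference of 0.40.

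The genes with names were mostly thylakoid and chloroplast genes. CaS encodes a calcium-sensing protein of the thylakoid membrane. ATPC1 encodes the gamma subunit of the chloroplast ATP synthase, and TROL a rhodanese-like thylakoid protein to which ferredoxin-NADP reductase docks. TRXF2 encodes a thioredoxin that activates enzymes of carbon fixation in the light. TAPX encodes the thylakoid ascorbate peroxidase, which removes hydrogen peroxide, and CURT1C belongs to the proteins that curve thylakoid membranes at the margins of grana. The seventh is ECS1. At 24 h the mutant mean was above the wild-type mean in 6 of these 7 genes.

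CaS had the widest head start of the 7 as the mean of darkness and 1 h. It was at 7.96, 7.96 and 7.51 in dark pif4pif5 seedlings, against 6.89, 7.19 and 6.96 in dark wild type. At 1 h it was at 8.88, 8.64 and 7.47 in pif4pif5 and at 7.20, 7.47 and 6.69 in wild type. The arrays did not overlap in darkness, and at 1 h the lowest mutant array and the highest wild-type array met at 7.47. By 24 h it reached 10.15, 10.50 and 9.96 in pif4pif5, against 9.89, 9.77 and 9.07 in wild type, again without overlap. The difference at 24 h was 0.63 (SE 0.30), and limma did not call it (adjusted p = 0.613). It was 0.37 without wild-type 24 h replicate C.

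ATPC1 was at 10.99, 10.94 and 11.17 in dark pif4pif5 and at 10.37, 10.81 and 10.62 in dark wild type. At 1 h its values were 11.31, 11.23 and 10.87 in pif4pif5, against 10.79, 10.70 and 10.39 in wild type. At 24 h they were 12.09, 12.24 and 12.02 in pif4pif5 and 11.74, 11.90 and 11.71 in wild type. The mutant arrays stood above the wild-type arrays in every condition, by a mean of 0.44, 0.51 and 0.33 in darkness, at 1 h and at 24 h (SE 0.15 and adjusted p = 0.595 at 24 h, limma).

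TROL showed the same order. Its values were 9.16, 9.23 and 9.18 in dark pif4pif5 and 8.37, 8.68 and 8.58 in dark wild type. At 1 h they were 9.39, 9.39 and 8.82 in pif4pif5, against 8.46 to 8.49 in wild type. At 24 h they were 10.26, 10.59 and 10.32 in pif4pif5, against 10.19, 10.05 and 9.90 in wild type. The groups did not overlap at any time, and the difference of 0.65 in darkness and 0.73 at 1 h was 0.34 at 24 h (SE 0.15, adjusted p = 0.575, limma).

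TRXF2 and TAPX had smaller mean differences at 24 h than in darkness, at 0.18 and 0.22, against 0.50 and 0.41. TRXF2 was at 6.72, 6.75 and 7.05 in dark pif4pif5 and at 6.26, 6.23 and 6.52 in dark wild type, without overlap. At 24 h TRXF2 was at 8.44, 8.16 and 8.42 in pif4pif5 and at 8.21, 8.33 and 7.96 in wild type, with overlap. TAPX was at 7.08, 7.01 and 7.18 in dark pif4pif5 and at 6.65, 6.57 and 6.84 in dark wild type. Those arrays did not overlap, nor did those at 1 h, where TAPX averaged 7.21 ± 0.28 in pif4pif5 and 6.46 ± 0.16 in wild type (SD, n = 3 each). At 24 h TAPX was at 8.12, 8.32 and 8.07 in pif4pif5 and at 7.83, 8.23 and 7.77 in wild type, with overlap.

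CURT1C was at 8.74, 8.22 and 8.75 in dark pif4pif5 and at 8.13, 8.38 and 7.35 in dark wild type. The groups overlapped there, since mutant replicate B lay below wild-type replicate B. At 24 h CURT1C was at 10.11, 10.04 and 10.11 in pif4pif5 and at 9.66, 9.82 and 9.44 in wild type, without overlap. The difference was 0.61 in darkness, 0.67 at 1 h and 0.45 at 24 h.

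ECS1 had a mean difference near 0 at 24 h, with wild-type arrays that were far apart. It was at 6.48, 6.51 and 6.18 in dark pif4pif5, against 5.30, 5.25 and 5.89 in dark wild type, a difference of 0.91. At 24 h ECS1 was at 8.05, 7.64 and 7.37 in pif4pif5, against 8.64, 8.02 and 6.41 in wild type. Wild-type replicate C was the lowest and wild-type replicate A the highest of the 6, and the difference of -0.00 (SE 0.40) was -0.64 without that replicate C and 0.47 without that replicate A.

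**Figure D2:**
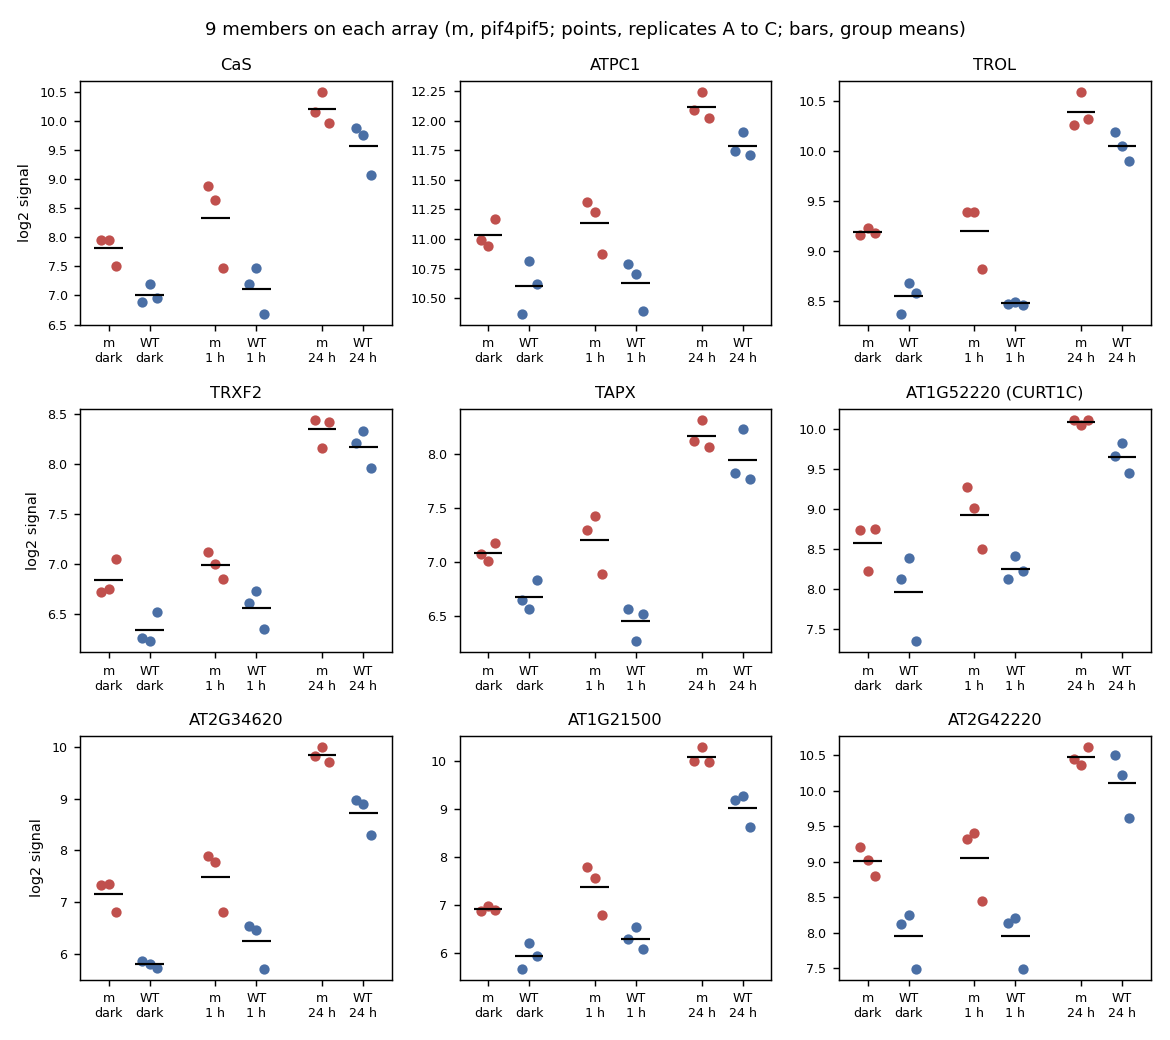
Log2 signal of 9 members on each array, pif4pif5 (m, red) left of wild type (WT, blue) in darkness, at 1 h and at 24 h of far-red light; points are replicates A to C from left to right and bars are group means. The y axes differ between panels and do not start at 0. At 1 h the rightmost mutant point, replicate C, is the lowest of the 3 in every panel.

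Among the genes with a locus tag only, the widest head starts were those of AT2G34620, AT2G42220 and AT1G21500. AT2G34620 was at 7.33, 7.36 and 6.81 in dark pif4pif5, against 5.86, 5.81 and 5.74 in dark wild type, a difference of 1.36 or 2.57-fold. At 24 h AT2G34620 was at 9.82, 9.99 and 9.70 in pif4pif5, against 8.97, 8.90 and 8.29 in wild type. The arrays did not overlap in any condition. The difference at 24 h was 1.11 (SE 0.27), which limma did not call (adjusted p = 0.0935). It was called with the replicate block (adjusted p = 0.0044) and after a filter on low signal (0.0499). In the other alternatives it was not called, with adjusted p values of 0.0726 to 0.363.

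AT1G21500 had the largest 24 h rise of the single-gene members, 3.17 in pif4pif5 and 3.09 in wild type. It was at 6.88, 6.97 and 6.90 in dark pif4pif5 and at 5.67, 6.20 and 5.94 in dark wild type. At 24 h AT1G21500 was at 9.99, 10.28 and 9.97 in pif4pif5 and at 9.19, 9.27 and 8.62 in wild type. The difference was 0.98 in darkness, 1.08 at 1 h and 1.06 at 24 h (SE 0.23, adjusted p = 0.0512, limma), and no mutant array overlapped a wild-type array at any time. This value sat beside the threshold: the gene was called with an intensity trend, with array weights, with the replicate block (adjusted p = 0.0122) and after a filter on low signal, and was not called in the other 10 alternatives.

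AT2G42220 was at 9.21, 9.02 and 8.79 in dark pif4pif5, against 8.12, 8.25 and 7.49 in dark wild type, a difference of 1.05. At 24 h AT2G42220 was at 10.44, 10.36 and 10.61 in pif4pif5, against 10.50, 10.22 and 9.61 in wild type, which overlapped, with a difference of 0.36 (SE 0.27, adjusted p = 0.81, limma). Its difference at 24 h depended on single wild-type arrays, at 0.11 without replicate C and 0.56 without replicate A.

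AT1G18060 was at 7.28, 7.30 and 7.37 in dark pif4pif5, against 6.36, 6.74 and 6.76 in dark wild type. At 1 h it was at 8.07, 7.92 and 7.13 in pif4pif5 and at 7.13, 7.20 and 6.73 in wild type. At 24 h AT1G18060 was at 9.04, 9.11 and 8.92 in pif4pif5 and at 8.75, 8.81 and 8.66 in wild type. The groups overlapped at 1 h, where mutant replicate C was low, and did not in darkness or at 24 h. The difference was 0.69, 0.69 and 0.28 in darkness, at 1 h and at 24 h (SE 0.20 and adjusted p = 0.78 at 24 h, limma).

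Of the other large rises, AT5G16030 had a mutant mean below the wild-type mean at 24 h. It was at 7.39, 7.19 and 8.12 in dark pif4pif5 and at 6.81, 6.96 and 7.63 in dark wild type. At 24 h AT5G16030 was at 9.61, 9.34 and 9.35 in pif4pif5, below all 3 wild-type values of 10.05, 9.71 and 10.01, a difference of -0.49 (SE 0.27, adjusted p = 0.702, limma). AT4G28780 was at 4.26, 4.69 and 4.29 in dark pif4pif5, against 3.55, 3.42 and 4.49 in dark wild type. At 24 h AT4G28780 was at 7.0, 7.31 and 6.91 in pif4pif5, against 6.74, 6.32 and 5.95 in wild type. Its arrays overlapped in darkness and not at 24 h, where the difference was 0.74 (SE 0.26, adjusted p = 0.385, limma). Its dark signal was low on the scale of the array: the mean over all arrays was below that of the median probe set, a filter that 85 of the 89 members passed, and its dark difference of 0.59 is between low signals.

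AT1G63880 was at 5.26, 5.22 and 5.66 in dark pif4pif5 and at 4.25, 4.56 and 5.63 in dark wild type. At 24 h AT1G63880 was at 7.59, 7.58 and 7.65 in pif4pif5 and at 7.65, 7.21 and 7.13 in wild type. Its arrays overlapped in all 3 conditions. The difference was 0.57 in darkness and 0.27 at 24 h, where it was 0.43 without wild-type replicate A and 0.17 without wild-type replicate C.

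The remaining 15 single-gene members were AT1G11850, AT1G32220, AT1G51110, AT1G52510, AT1G52870, AT1G74730, AT2G04039, AT2G43560, AT3G48420, AT3G50270, AT3G59780, AT3G61870, AT4G18810, AT5G19940 and AT5G38980. Their dark differences lay between 0.41 and 0.73, their differences at 1 h between 0.40 and 0.75, and their wild-type rises between 1.01 and 2.48. At 24 h the differences ranged from -0.12 (AT4G18810) to 0.89 (AT1G11850), with a median of 0.44. Chosen after their values were seen, AT1G74730 and AT1G52510 stand for both courses. AT1G74730 kept its difference, with 0.64 in darkness, 0.73 at 1 h and 0.74 at 24 h, and no overlap in any condition. AT1G52510 differed by 0.50, 0.61 and 0.01 at the same times, and its arrays overlapped at 24 h.

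The rule set no limit on the genotype difference at 24 h itself. The 24 h arrays entered it through the rise of each genotype over its own dark level. With the dark criterion, the lowest 24 h level allowed was at least 0.4 higher in the mutant than in wild type. Of the probe sets that failed on 1 criterion alone, 28 failed on the mutant rise and 3 on the wild-type rise. The choice itself thus leaned to the mutant at 24 h, which the shares over all probe sets do not carry. The genotype difference at 24 h had a median of 0.29 over the members, or 1.22-fold, with a range of -0.49 to 1.11. It was above 0 in 78 of the 89, where 49.4% of all probe sets were above 0 and their median was -0.00. In the 188 late rises without the head start the median was 0.13 and 145 were above 0. Without wild-type 24 h replicate C the members' median was 0.19 and 66 were above 0. Leaving out any other single 24 h array gave medians from 0.26 to 0.38.

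Few of these differences passed the test for a single probe set. limma called 2 members higher in pif4pif5 at 24 h and 0 lower (adjusted p under 0.05), where 0.0791% of all probe sets were called higher and 0.286% lower. At an unadjusted p under 0.05, 27 members were higher and 0 lower. Of all probe sets, 749 (3.29%) were higher and 1132 lower at that limit. Of the 188 late rises without the head start, limma also called 2 higher and 0 lower. At the unadjusted limit 32 of the 188 were higher and 5 lower. Both called members lacked an assigned gene. Probe set 245123_at was at 11.02, 11.22 and 11.31 in pif4pif5, against 10.37, 10.47 and 10.54 in wild type, a difference of 0.73 (SE 0.14, 1.65-fold, adjusted p = 0.0336). Probe set 256020_at was at 9.99, 10.12 and 10.03 in pif4pif5, against 9.27, 9.22 and 8.98 in wild type, a difference of 0.89 (SE 0.17, 1.85-fold, adjusted p = 0.0234). Leaving out any 1 of the 6 arrays brought the count to 0 or 1, and it was 4 with the replicate block.

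The gap between the genotypes was smaller at 24 h than in darkness in 76 of the 89 members, with a median change of -0.31. The mutant rose further than wild type in the other 13. A part of this is built into the choice, since members were taken for a wide dark gap, and the late rises without the head start gave 112 of 188 with a median change of -0.06. At 24 h the difference was still at least 0.4 in 32 of the 89 members, against 3.28% of all probe sets and 32 of the 188. It was below 0 in 11 members and in 43 of the 188. Across members, the dark and 24 h differences had a Pearson r of 0.32 (Spearman rho 0.33, n = 89), and the dark and 1 h differences an r of 0.73 (rho 0.53), as a description over transcripts measured on the same arrays.

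**Figure D3:**
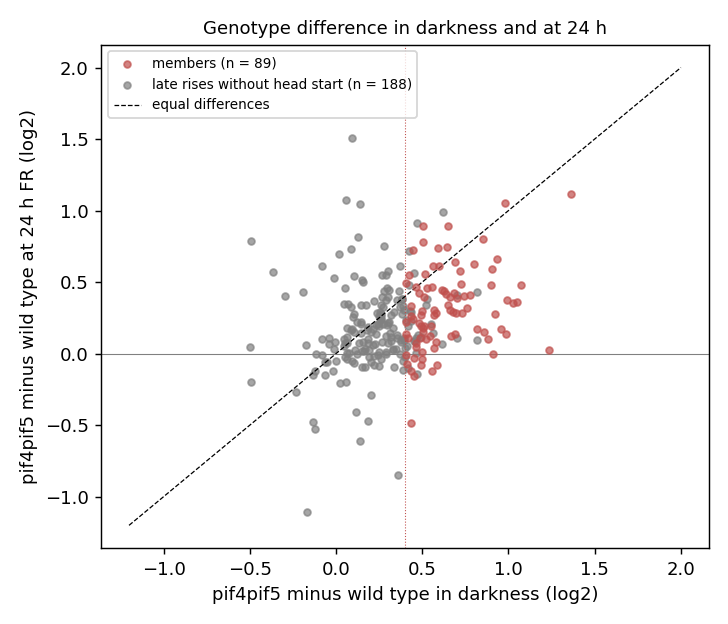
Difference between pif4pif5 and wild type at 24 h of far-red light (y axis, log2) against that in darkness (x axis, log2) for the 89 members (red) and the 188 late rises without the head start (grey). The dashed line marks equal differences and the dotted line the dark limit of 0.4; 76 members lie below the dashed line.

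To read the head start on arrays that took no part in the choice, probe sets were chosen again on the dark and 24 h arrays alone. The criteria were both 24 h rises and the dark difference, with none on the 1 h arrays, and 164 probe sets met them after the exclusion by name. This reduced rule was set up after the data had been seen. At 1 h the mutant stood above wild type in 159 of the 164, with a median of 0.56 or 1.47-fold, while 45.1% of all probe sets were above 0, with a median of -0.02. The difference was at least 0.4 in 121 of the 164, against 2.75% of all probe sets and 49 of the 216 probe sets with both 24 h rises and a dark difference under 0.4. In 102 of the 164 the mutant arrays lay above the wild-type arrays without overlap, against 7.52% of all probe sets and 48 of these 216. The mutant mean was above the wild-type mean in 168 of the 216, with a median of 0.20, so late rises in general leaned to the mutant. Across the 164 the dark and 1 h differences had a Pearson r of 0.51 (Spearman rho 0.42).

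Few single differences at 1 h passed the test. limma called 2 of the 164 higher and 0 lower at an adjusted p under 0.05, where 0.0132% of all probe sets, 3 in number, were called higher and 0.0264% in either direction. At an unadjusted p under 0.05, 108 of the 164 were higher and 0 lower, where 681 (2.99%) of all probe sets were higher and 242 lower. Of the 216 with a dark difference under 0.4, 0 were called, and 50 were higher and 0 lower at the unadjusted limit. The called probe sets, named here after their values were seen, were 251814_at (1.15, SE 0.19, adjusted p = 0.0415), which is not a member, and the member 252441_at. Probe set 252441_at was at 9.32, 9.65 and 8.98 in pif4pif5 and at 8.35, 8.29 and 7.99 in wild type at 1 h, a difference of 1.11 (SE 0.18, adjusted p = 0.0402). The count moved with single arrays: it was 28 without pif4pif5 1 h replicate C, and 0 or 1 without any other 1 h array. It was 19 with the replicate block and 82 with array weights. The calls over all probe sets, 6 in the fit as reported, were 52, 39 and 425 under these 3 settings.

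**Figure D4:**
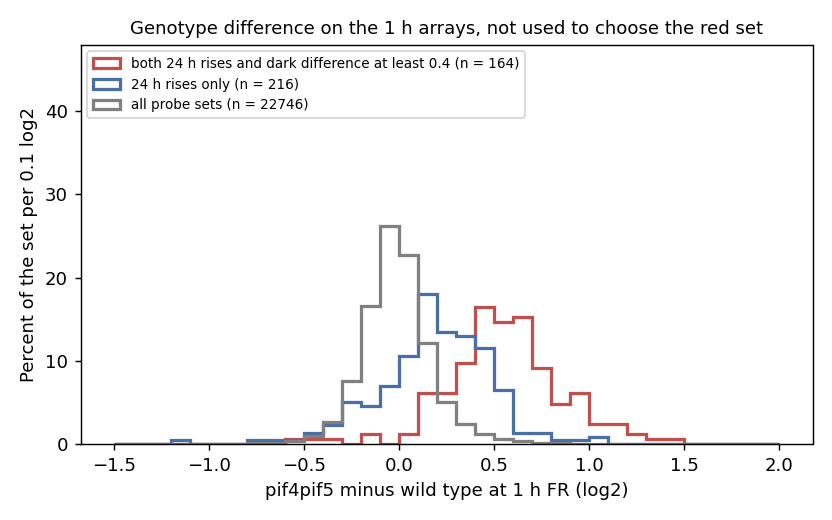
Distribution of the difference between pif4pif5 and wild type on the 1 h arrays (x axis, log2) as percent of each set per 0.1 (y axis), for the 164 probe sets chosen on dark and 24 h arrays (red), the 216 with both 24 h rises and a dark difference under 0.4 (blue) and all 22746 (grey). The red set is centred at 0.56, the blue at 0.20 and the grey at -0.02; values beyond the axis are counted in the end bins.

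A second check left out 1 replicate letter at a time. Choosing on replicates B and C gave 56 probe sets, and all 56 were higher in pif4pif5 in replicate A in darkness (median 0.85), where 54.4% of all probe sets were. Choosing without replicate B gave 77, of which 71 were higher in that replicate in darkness (median 0.45, 61.8% of all probe sets). Choosing without replicate C gave 99, of which 83 were higher in replicate C in darkness (median 0.42). There 14.6% of all probe sets were higher, and wild-type dark replicate C is the array with the raised median. At 1 h the left-out replicate was higher in 56 of 56, 77 of 77 and 95 of 99, against 50.4%, 50.7% and 40.6% of all probe sets. Late rises without the head start also leaned to the mutant in the left-out dark replicate, in 177 of 193, 145 of 189 and 98 of 179. At 1 h they did so in 166 of 193, 163 of 189 and 95 of 179. A milder difference in the same direction was thus not particular to the members.

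The members also moved together within groups, which the rule did not use. At 1 h, pif4pif5 replicate C was the lowest of its 3 arrays for all 89 members, where it was the lowest for 37.4% of all probe sets. It lay below the group mean by a median deviation of -0.38. Wild-type replicate C was the lowest of the 1 h arrays for 76 of 89, against 30.8% of all probe sets, with a median deviation of -0.20. At 24 h replicate C was the lowest for 50 members in pif4pif5 and for 76 in wild type, against 33.8% and 38.9% of all probe sets. In darkness replicate C was the lowest for 36 members in pif4pif5 and for 23 in wild type, against 32.2% and 8.96% of all probe sets. Among the 188 late rises without the head start, replicate C at 1 h was the lowest for 139 in pif4pif5 and for 89 in wild type. What the letters stand for is not given in the labels. The array medians over all probe sets at 1 h lay between 5.71 and 5.79 and did not set replicate C apart.

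Within each letter the genotype differences in darkness and at 1 h are given as a description, since the mean of the same arrays chose the members. At 1 h the members' median difference was 0.78 in replicate A, 0.72 in B and 0.46 in C, with 88, 89 and 88 members higher in pif4pif5, against 50.4%, 50.7% and 40.6% of all probe sets. In darkness it was 0.78, 0.47 and 0.55 for A, B and C, with 89, 86 and 80 members higher, against 54.4%, 61.8% and 14.6% of all probe sets. At 24 h it was 0.22, 0.28 and 0.46, with 55, 71 and 86 higher, while 41.1%, 51.1% and 54.0% of all probe sets were higher in pif4pif5 in these replicates.

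**Figure D5:**
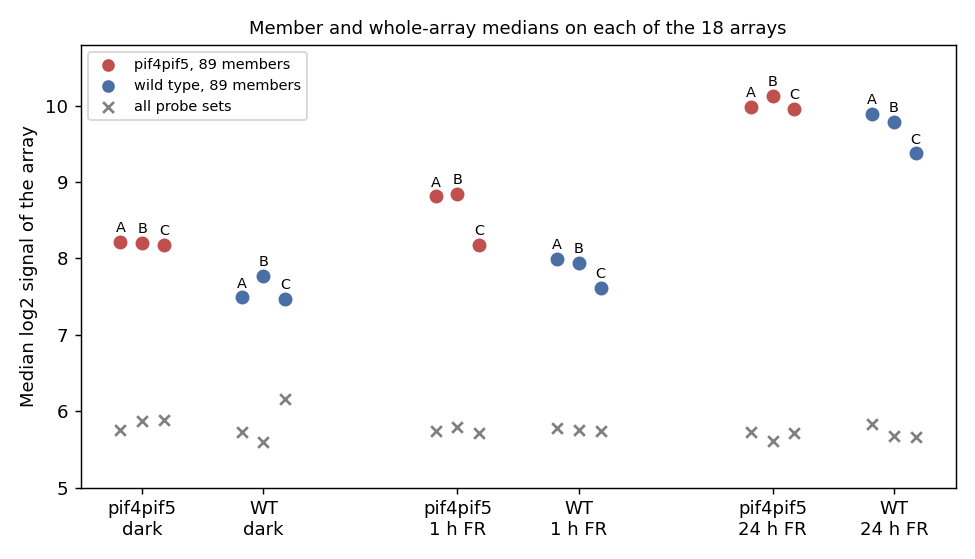
Median log2 signal of the 89 members on each array (filled circles, letters are replicates) and of all 22746 probe sets (crosses), with pif4pif5 (red) left of wild type (blue) in each condition. The y axis does not start at 0. Replicate C is below A and B in both genotypes at 1 h, while the crosses are level there, and wild-type dark replicate C has the highest cross, at 6.16.

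Related genes outside the group were set beside it from the listed pathways. Of the 3 measured carbon fixation genes 0 were members and 0 were called between genotypes at 24 h. RCA stood higher in pif4pif5 by 0.40 in darkness and 0.45 at 1 h and differed by -0.03 at 24 h. SBPASE differed by 0.42, 0.51 and 0.06 at these times, and PRK by 0.09, 0.05 and 0.29. Of the 3 photorespiration genes HPR, a hydroxypyruvate reductase gene, rose by 1.71 in pif4pif5 and 1.82 in wild type with a dark difference of 0.18, and was a late rise without the head start. The others, AT1G80380 and AT1G11860, were not late rises. They rose by 0.34 and 0.695 in pif4pif5 and by 0.418 and 0.835 in wild type, with dark differences of -0.12 and 0.13. Of 2 electron transport and photoprotection genes ATPC1 was the member. The other, AT4G01150, differed by 0.403 in darkness and 0.342 at 1 h, and rose by 0.845 in pif4pif5 and 0.955 in wild type. HYH, a bZIP factor of light signalling and the 1 measured greening regulator, had dark and 1 h differences of 0.72 and 0.64 but had already changed by 1.57 in pif4pif5 and 1.65 in wild type at 1 h. LYC, the lycopene cyclase gene of carotenoid synthesis, differed by -0.01 in darkness and -0.04 at 24 h. Of the 12 measured genes of these lists limma called 0 between the genotypes at 24 h, where 0.365% of all probe sets were called. ATPC1 was the one with an unadjusted p under 0.05 (0.0462). At that limit 749 of all 22746 probe sets were higher in pif4pif5 and 1132 lower, so nothing is read from these counts.

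The 7 probe sets left out by name met the same numerical criteria, and among them the photosystem I gene PSAE-1 differed by 0.90 in darkness, 0.91 at 1 h and 0.31 at 24 h. HEME1, a gene of tetrapyrrole synthesis, had its widest difference at 24 h, with 0.54, 0.70 and 0.93. Among all 285 late rises 33.7% met the head start criteria before the exclusion, while 1.09% of all probe sets did. The dark arrays enter both sides of that share, so it is a description only. As 60 of the 89 members had no assigned gene, the exclusion by symbol could act on the named ones only.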

How the data were processed

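The deposited values are log2 signal intensities per probe set, made by the authors with RMA (robust multi-array averaging), per the submitters' processing notes, which name neither a version nor settings. They were used as deposited. The table held 22810 probe sets, of which 64 controls were left out. The supplied probe table named 1 gene for 13513 of the others, several for 503 and none for 8730. Promoter and protein sequences were not used here.

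The rule was applied to group means. Differences were tested with limma (version 3.58.1, R 4.3.3), in which each of the 6 groups had its own mean and all 18 arrays shared the spread (12 residual and 5.91 prior degrees of freedom). The code was tested on simulated data. Adjusted p values are Benjamini-Hochberg values over all 22746 probe sets, called under 0.05. An exact test of 3 arrays against 3 cannot go below 0.1. All differences are pif4pif5 minus wild type, or light minus darkness. The members, lists and tests were chosen with earlier results of these data known. Array values are given for the 6 single-gene members with the widest head start and the 6 with the largest wild-type rise, for members on the pathway lists, for called members and for members with a gene name. Alternatives were quantile normalization, a shift to one median, other variance models, array weights, a block on the replicate letter, filters and left-out arrays. The number of arrays limits the precision.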

Additional observations from a re-analysis of the deposited data

How the results depend on the processing

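The count of members called at 24 h (2) was 1 with quantile normalization, 1 after a shift to one median, 0 in a fit on the compared groups only, 4 with the replicate block, 4 with a filter on low signal, 0 over single-gene probe sets only, 1 over members with rises of at least 1.5 and 0 at an adjusted p under 0.01; without single arrays it was 0 to 1. The count at 1 h among the 164 probe sets chosen on the other arrays (2) was 1 with quantile normalization, 0 after the shift, 0 on the compared groups, 6 with an intensity trend, 82 with array weights, 19 with the replicate block, 5 with the filter on low signal, 0 over single-gene probe sets, 0 at an adjusted p under 0.01 and 0 to 28 without single arrays; these were chosen after seeing the data. Over all probe sets the count of calls was 83 at 24 h (13 on the compared groups, 40 over single-gene probe sets, 225 with array weights, 126 with the filter on low signal, 17 at an adjusted p under 0.01, and 21 to 178 without single arrays) and 6 at 1 h (425 with array weights, 39 with the replicate block, 15 with an intensity trend, 13 with the filter on low signal, 3 over single-gene probe sets, 2 at an adjusted p under 0.01, and 2 to 52 without single arrays). The cause of these moves was not tested. The number of members (89) was 56 without replicate A (48 of them members), 51 with a head start of at least 0.5, 48 with 24 h rises of at least 1.5, and between 56 and 99 over all left-out letters and dark arrays; it was 96 with quantile normalization (80 shared), 97 after the shift (83 shared) and 81 with group medians (65 shared). Members' median differences in darkness were 0.51 to 0.66 without single dark arrays. Same-letter deviations from the group means correlated, for A, B and C, at 0.34, 0.05 and 0.36 in darkness, 0.10, 0.03 and 0.45 at 1 h and 0.015, 0.13 and 0.35 at 24 h. In each condition at least 1 pair was under 0.1, so the letters were not taken as pairs, and not every array correlated best with its own letter. The C pair was the highest in each condition, however. Replicate C thus deviated alike in both genotypes, which the main fit, without a block on the letter, does not take into account. C correlated with the other letters at -0.41 to -0.07. Deviations from a group mean sum to 0, so a positive C pair brings such negative values with it, and nothing more is read from them. What the letters share was not tested.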
